A study of Homo sapiens with 4 samples.

Results

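HLA class II molecules are the cell surface proteins with which B cells and other antigen-presenting cells show peptides to CD4+ T cells. HLA-DR, HLA-DQ and HLA-DP are heterodimers of an alpha and a beta chain, HLA-DM loads the peptide by releasing the invariant chain fragment, and HLA-DO holds HLA-DM in check. CIITA, the class II transactivator, does not bind DNA itself. It is recruited to the X and Y boxes of class II promoters by the RFX complex, CREB and NF-Y, and it is transcribed from several alternative promoters, of which promoter III is the one known for use in B cells.

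The genes described here were HLA-DRA, HLA-DRB1, HLA-DQA1, HLA-DQB1, HLA-DPA1, HLA-DPB1, HLA-DMA, HLA-DMB, HLA-DOB and CIITA, 10 of the 19962 protein-coding genes of GENCODE v44 on hg38. They were chosen by name and not by a measured value, though earlier results of these data were known. With them went the peaks with a summit in chr6:32400001-33150000 or within 50 kb of the CIITA gene on chromosome 16, and the loops with an anchor in either window. The cells were HG00731, a lymphoblastoid line, that is, B cells immortalized with Epstein-Barr virus. HiChIP, which joins proximity ligation to chromatin immunoprecipitation, had been done for SMC1, a subunit of the cohesin ring that extrudes chromatin loops, on chromatin cross-linked with formaldehyde and EGS, and for CTCF, the zinc finger protein at which cohesin halts, on chromatin cross-linked with formaldehyde alone. Both targets had 2 replicates, but the peak list and the loop list of each target pooled them, so no value below has a replicate error and no difference between the targets was tested. The targets also differed in cross-linking and, by the study's counts, in sequencing reads, of which SMC1 had more. Neither can be told apart from the protein.

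The lists held 97364 SMC1 peaks and 63555 CTCF peaks, with 28012 loops labelled SMC1 and 80487 loops labelled CTCF. The study's text assigns the larger loop set to SMC1, against these labels, so the loop lists are called by their labels throughout, and any comparison between them turns round if the labels are exchanged. Peak strength is given as the fold enrichment at the summit over local background and as −log10 q, and loop strength as read pairs joining a pair of 5 kb bins beside the number the loop caller expected. Intervals on read pairs are exact 95% Poisson intervals, and they cover counting error only.

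None of the 9 class II genes had a peak or a loop. That window of chromosome 6 held 0 SMC1 peaks, 0 CTCF peaks and 0 anchors of either loop list. For HLA-DRA, the invariable alpha chain of HLA-DR, the start at chr6:32439887 lay 1041 kb from the nearest peak of either target. The start of its partner HLA-DRB1 at position 32589848 lay 891 kb from it, that of HLA-DQA1 at 32637406 lay 844 kb, and that of HLA-DQB1 at 32666657 lay 814 kb. HLA-DOB, at 664 kb, HLA-DMB, at 540.0 kb, and HLA-DMA, at 528 kb, came next, and HLA-DPB1, at 405 kb, and HLA-DPA1, at 400.4 kb, were the closest. In every case the nearest peak was the same one in each list, starting at position 33481066.

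The gap was far wider than the class II genes. Between positions 28496550 and 33481065 of chromosome 6, a stretch of 4.98 Mb with 183 protein-coding gene starts, each list held a single peak, which divided the stretch into peak-free parts of 2.88 and 2.11 Mb. No undetermined bases (N) fell in either part of the reference. In the 5 Mb before the stretch there were 57.2 SMC1 and 36.4 CTCF peaks per Mb, and in the 5 Mb after it 80.8 and 45.4. Loops stopped at the same edges, with no anchor of the list labelled SMC1 between the bins starting at 28355001 and 33575001 and none of the list labelled CTCF between 28355001 and 33570001. The part that held the 9 class II genes had 112 coding starts and the other part 71, the highest counts among all peak-free stretches of at least 1 Mb, where the next highest count was 24.

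**Figure D1:**
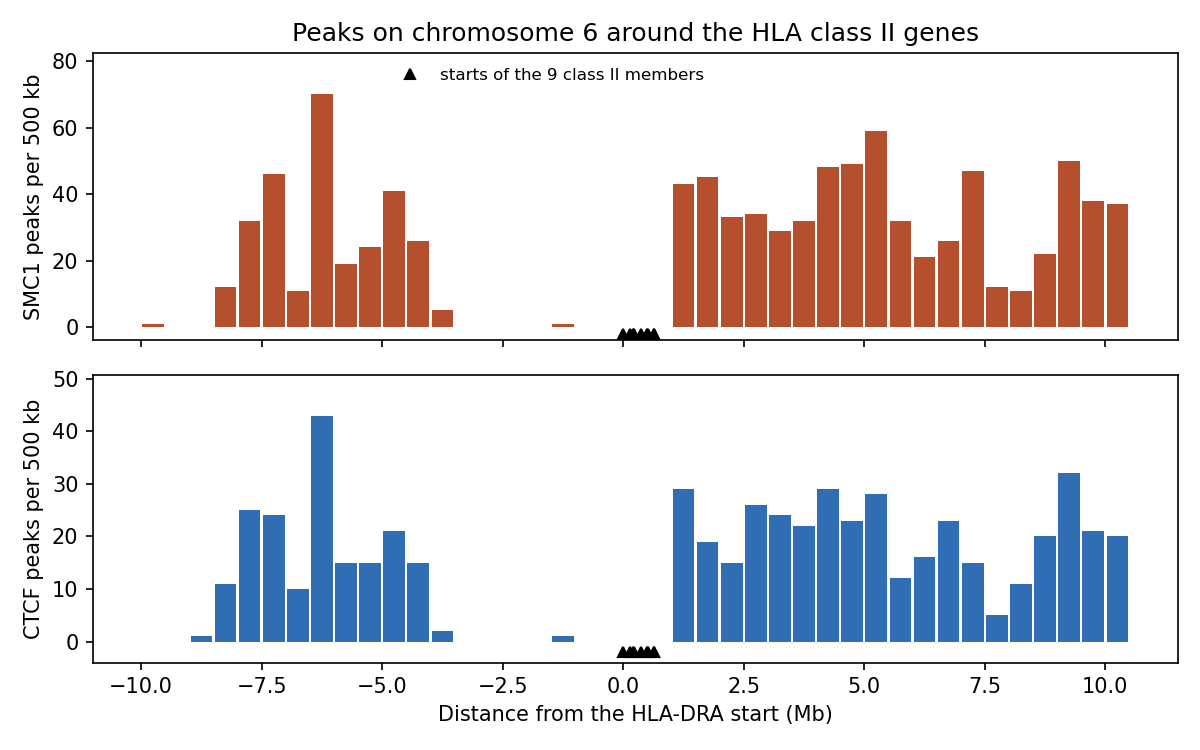
Number of SMC1 (top) and CTCF (bottom) peaks per 500 kb of chromosome 6 against distance from the HLA-DRA start in Mb, with triangles at the starts of the 9 class II genes. The genes lie in a stretch of 4.98 Mb that holds 1 peak in each list.

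The numbering of the peaks and their place on other contigs were looked at for this stretch. The peak caller's serial numbers ran from 1 to 97364 and from 1 to 63555 without a skipped number. Peaks had also been called on alternate contigs of the reference, which carry other haplotypes of chosen regions, with 76 SMC1 peaks on 38 such contigs and 78 CTCF peaks on 42. Contigs of chromosome 6 carried 16 SMC1 peaks, up to a −log10 q of 260.2, and 15 CTCF peaks, up to 282. These are all alternate contigs of that chromosome, and which of them cover the empty stretch was not looked up. In each list 1 peak lay on a contig of an HLA-DRB1 allele sequence, at a fold of 4.76 and a −log10 q of 17.3 for SMC1 and at 4.37 and 9.56 for CTCF. Reads that align equally well to a chromosome and to its alternate contigs can receive a low mapping quality, and the study removed reads of low mapping quality. It does not state how its alignment treated alternate contigs. The part of this in the empty stretch was not tested, so the absence of peaks says nothing here about binding of SMC1 or CTCF at class II genes.

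The promoters of the class II genes could be described by sequence only. The RefSeq promoter table (GRCh38.p14, 250 bases before to 50 after a start) held 9 promoters of 8 of the genes. The entries missing from it were HLA-DRA and CIITA. A core of the X box, CCNNGNNAC, followed on the same strand by the Y box core ATTGG with starts 20 to 50 bases apart, was searched on both strands. It was found in the promoters of HLA-DQB1 and HLA-DMA, 2 of the 8 genes, and in 1.77% of all 35116 promoters. Both are printed to show the letters found and their spacing, with the X and Y cores in capitals.
HLA-DQB1, chr6:32666736-32666786, minus strand: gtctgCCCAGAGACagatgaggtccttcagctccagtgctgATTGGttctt
HLA-DMA, chr6:32953167-32953218, minus strand: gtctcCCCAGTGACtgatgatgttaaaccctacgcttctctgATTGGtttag

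The cores started 36 bases apart in HLA-DQB1 and 37 in HLA-DMA, with the X core beginning 124 and 116 bases before the transcript start. On either strand, the Y core alone was present at 7 of the 8 genes and in 34.6% of all promoters, and the X core alone at 4 of the 8 and in 50.1%. A missing match says only that these letters are not in the window.

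CIITA was the member with data. Its gene record spans chr16:10866222-10943021 on the plus strand, and the canonical transcript starts at 10877202, inside the record. Of the 10 members it alone had an SMC1 peak within 1 kb of its canonical start, against 58.5% of all protein-coding genes, and it alone had a CTCF peak there, against 38.5%. It also had an anchor within 5 kb of its start in the loops labelled SMC1, as did 27.8% of all genes, and in those labelled CTCF, as did 50.5%. The other 9 members lie in the empty stretch, so none of these counts can be read as a lower share than that of all genes. The window within 50 kb of the gene, chr16:10816222-10993021, held 29 SMC1 peaks, 17 CTCF peaks, 37 loops labelled SMC1 and 139 labelled CTCF. Besides CIITA it covers DEXI, whose gene lies on the other strand and starts at 10942468, the 5′ part of CLEC16A, which starts at 10944564 and takes part in autophagy and mitophagy, and the 5′ end of TVP23A.

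The CTCF sites that bound the loops of this window are shown first. The 19 base CTCF motif was learned from the strongest CTCF summits of other chromosomes, and the best match in each peak was scored in bits, with at least 10 bits counted as a match. Each sequence is written in the direction of the motif, with the motif in capitals, so that the strand says which way the site points.
CIITA intron, chr16:10918914-10918952, minus strand: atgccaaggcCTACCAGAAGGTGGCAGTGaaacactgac
DEXI start, chr16:10942551-10942589, plus strand: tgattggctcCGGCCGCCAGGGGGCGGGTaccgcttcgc
CLEC16A intron, site A, chr16:10954098-10954136, plus strand: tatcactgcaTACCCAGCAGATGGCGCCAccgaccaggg
CLEC16A intron, site B, chr16:10964180-10964218, plus strand: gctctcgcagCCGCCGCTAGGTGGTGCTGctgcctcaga
CLEC16A intron, site C, chr16:10983336-10983374, plus strand: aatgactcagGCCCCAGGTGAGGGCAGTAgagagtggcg
SOCS1, chr16:11255829-11255867, minus strand: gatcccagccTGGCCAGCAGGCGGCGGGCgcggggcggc
Upstream of NUBP1, chr16:10737230-10737268, minus strand: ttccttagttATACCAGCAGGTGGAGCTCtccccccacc

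The strongest CTCF peak of the window lay in a CIITA intron at chr16:10918860-10919647, 42.0 kb downstream of the canonical start, with a fold of 12.4 and a −log10 q of 157. Its motif pointed back toward the CIITA start and scored 16.4 bits, 237 bases to the left of the summit. The SMC1 peak at the same site, chr16:10918899-10919688, had a fold of 4.76 and a −log10 q of 86.0, which made it the 4th of the 29 SMC1 peaks, and the summits of both targets were 7 bases apart.

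At the intron site the peaks stood level within their whole lists, above 91.2% of the CTCF list and 91.0% of the SMC1 list. At the CIITA start they did not. The SMC1 peak at chr16:10876503-10877512 had a fold of 4.36 and a −log10 q of 104, the 2nd of the window and above 93.3% of the SMC1 list. The CTCF peak at chr16:10876483-10877486 had a fold of 5.04 and a −log10 q of 28.8, the 7th of 17 and above 58.2% of the CTCF list. Both summits lay just before the canonical start, by 61 and 60 bases. Ranks are compared here within each list, since −log10 q depends on the depth of a library.

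Starts of CIITA away from the canonical one had weaker peaks within 1 kb or none. The most upstream start, at 10866222, where the promoter known from dendritic cells lies, had no peak within 1 kb, and the nearest were an SMC1 peak 1779 bases downstream at a −log10 q of 45.2 and a CTCF peak 1831 bases downstream at 15.8. The start at 10878969, in the region of the promoter that responds to interferon-gamma, had an SMC1 peak 726 bases away at 17.6 and a CTCF peak 902 bases away at 4.55. The start at 10922167 had no peak within 1 kb. The nearest were those of the strong intronic CTCF site, an SMC1 peak 2479 bases away at 86.0 and a CTCF peak 2520 bases away at 157. The canonical start carried the strongest peak of each target among the CIITA starts with a peak within 1 kb.

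The other strong peaks of the window lay in CLEC16A introns and carried both proteins. Site A, at 76.8 kb from the CIITA start, had a CTCF peak with a fold of 9.57 and a −log10 q of 152 and an SMC1 peak with 4.83 and 73.1. Site B, at 87.1 kb, had a CTCF peak with a fold of 9.06 and a −log10 q of 149, and the SMC1 peak there, with a fold of 5.22 and a −log10 q of 149, was the strongest of the window. Site C, at 106 kb, had 9.42 and 123 for CTCF and 4.69 and 86.6 for SMC1. These 3 sites and the CIITA intron were the only places in the window where CTCF passed a −log10 q of 38.0, the value at the DEXI start.

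Along the whole window SMC1 peaks were weaker by fold than in the list at large. Their median fold was 2.65 and their median −log10 q 15.6, against 3.32 and 13.7 over all SMC1 peaks of chromosomes 1 to 22 and X. CTCF peaks of the window had a median fold of 4.20 and a median −log10 q of 15.8, against 5.01 and 19.6. Within the CIITA gene body lay 17 SMC1 and 10 CTCF peaks.

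CTCF was seldom alone, and SMC1 often was. Of the 17 CTCF peaks 13 overlapped an SMC1 peak by at least 1 base (76.5%, 95% Wilson interval 52.7 to 90.4), against 75.9% over the CTCF list. Of the 29 SMC1 peaks 12 overlapped a CTCF peak (41.4%, 25.5 to 59.3), against 47.1% over the SMC1 list, so neither share stood apart from its list by more than counting error. The SMC1 peaks with a CTCF partner had a median −log10 q of 44.1 and the 17 without one 7.68, a gap also seen over the list, at 34.1 and 7.40. With only peaks at a −log10 q of at least 10, the share of SMC1 peaks with a CTCF partner was 55.6%. That of CTCF peaks with an SMC1 partner was then 90.9%.

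The strongest SMC1 peaks without CTCF were upstream of the gene. The peak at chr16:10843006-10843885, 34.1 kb before the canonical start, had the highest SMC1 fold of the window, 5.37, at a −log10 q of 52.8. A neighbour at chr16:10835130-10836649, 41.5 kb before the start, had a fold of 3.82 and a −log10 q of 37.3. Inside the gene the strongest of this kind lay 14.6 kb downstream of the start, at chr16:10891215-10891957 with a −log10 q of 29.8, and 38.8 kb downstream, at chr16:10915703-10916395 with 28.4. Whether these are regulatory elements cannot be read from these lists.

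**Figure D2:**
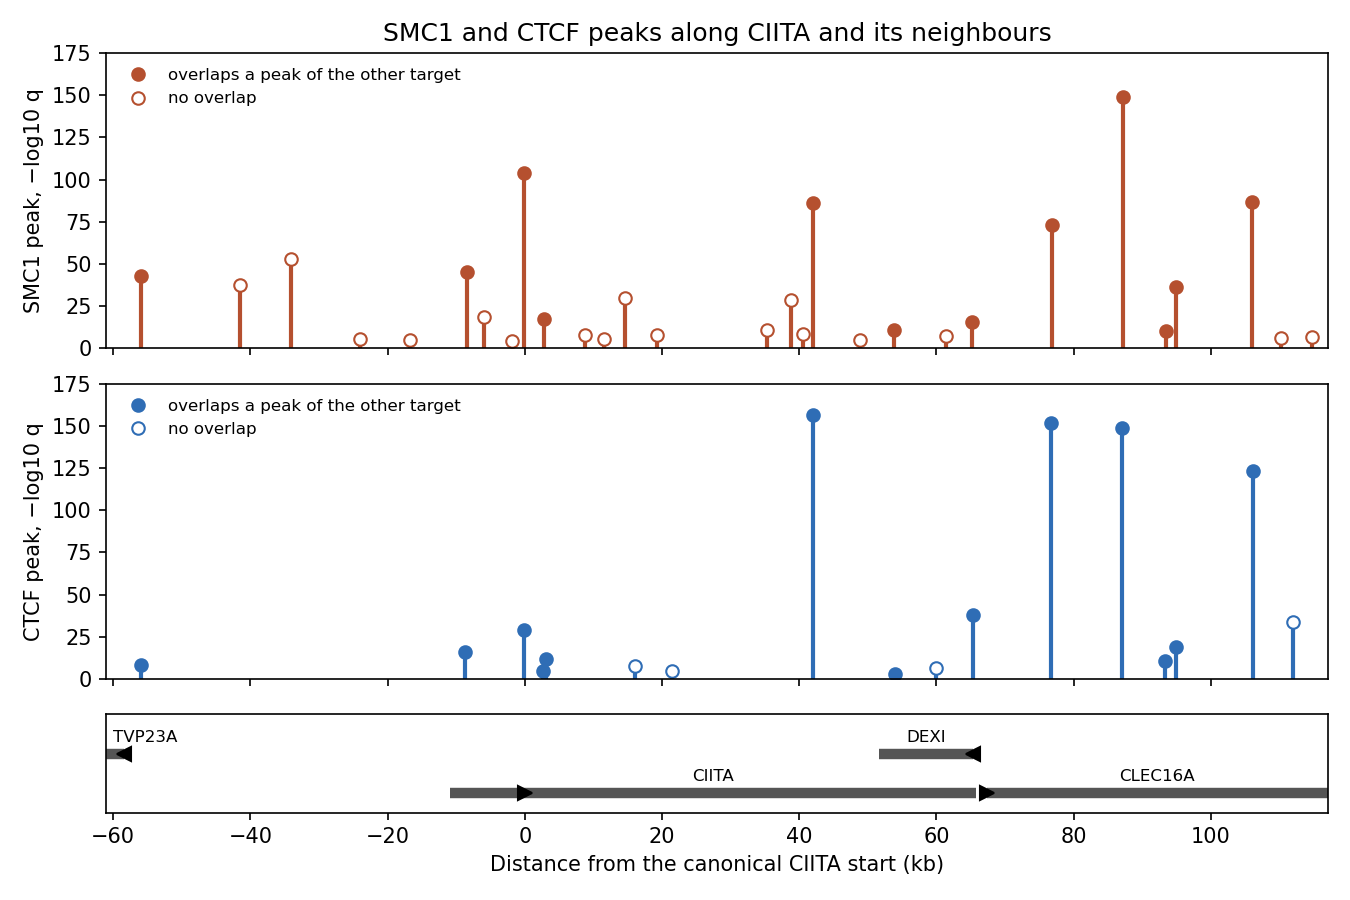
−log10 q of the 29 SMC1 peaks (top) and the 17 CTCF peaks (middle) against distance in kb from the canonical CIITA start, filled where the peak overlaps one of the other target, with genes and their starts (arrowheads) at the bottom. At the CIITA start the SMC1 peak (104) was above 93.3% of its list and the CTCF peak (28.8) above 58.2% of its own. CTCF was highest 42.0 kb downstream (157).

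At its start CIITA made 3 loops labelled SMC1 and 20 labelled CTCF. The loop with most read pairs was the same in both lists and joined the bin of the start, chr16:10875001-10880000, to the bin of the strong CTCF site in the CIITA intron, chr16:10915001-10920000, over 40 kb. It had 31 read pairs where 10.4 were expected in the list labelled SMC1, and 130 pairs (109 to 154) where 48.6 were expected in the list labelled CTCF. The next joined the start to the bin at 10735001, 140 kb to the left and upstream of NUBP1, which codes for an iron-sulfur cluster assembly factor. It had 21 pairs against 6.68 expected, and 106 (86.8 to 128) against 24.5. Another, with the bin at 10750001 inside NUBP1, had 15 pairs (8.40 to 24.7) against 3.29, and 69 (53.7 to 87.3) against 14.0.

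The remaining loops at the start were in the list labelled CTCF. The start bin was joined to the bin at 10835001, where the SMC1 peak without CTCF lay, by 78 pairs (61.7 to 97.3) against 33.7 expected, to the bin at 10810001 near the TVP23A start by 69 (53.7 to 87.3) against 24.7, and to the bin at 10740001 by 62 (47.5 to 79.5) against 12.7. Of the 20 loops 18 reached to the left and 2 to the right, both of these ending inside CIITA, in the bins at 10910001 and 10915001. With the stricter demand that the start lie inside the anchor, 14 of the 20 were left.

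**Figure D3:**
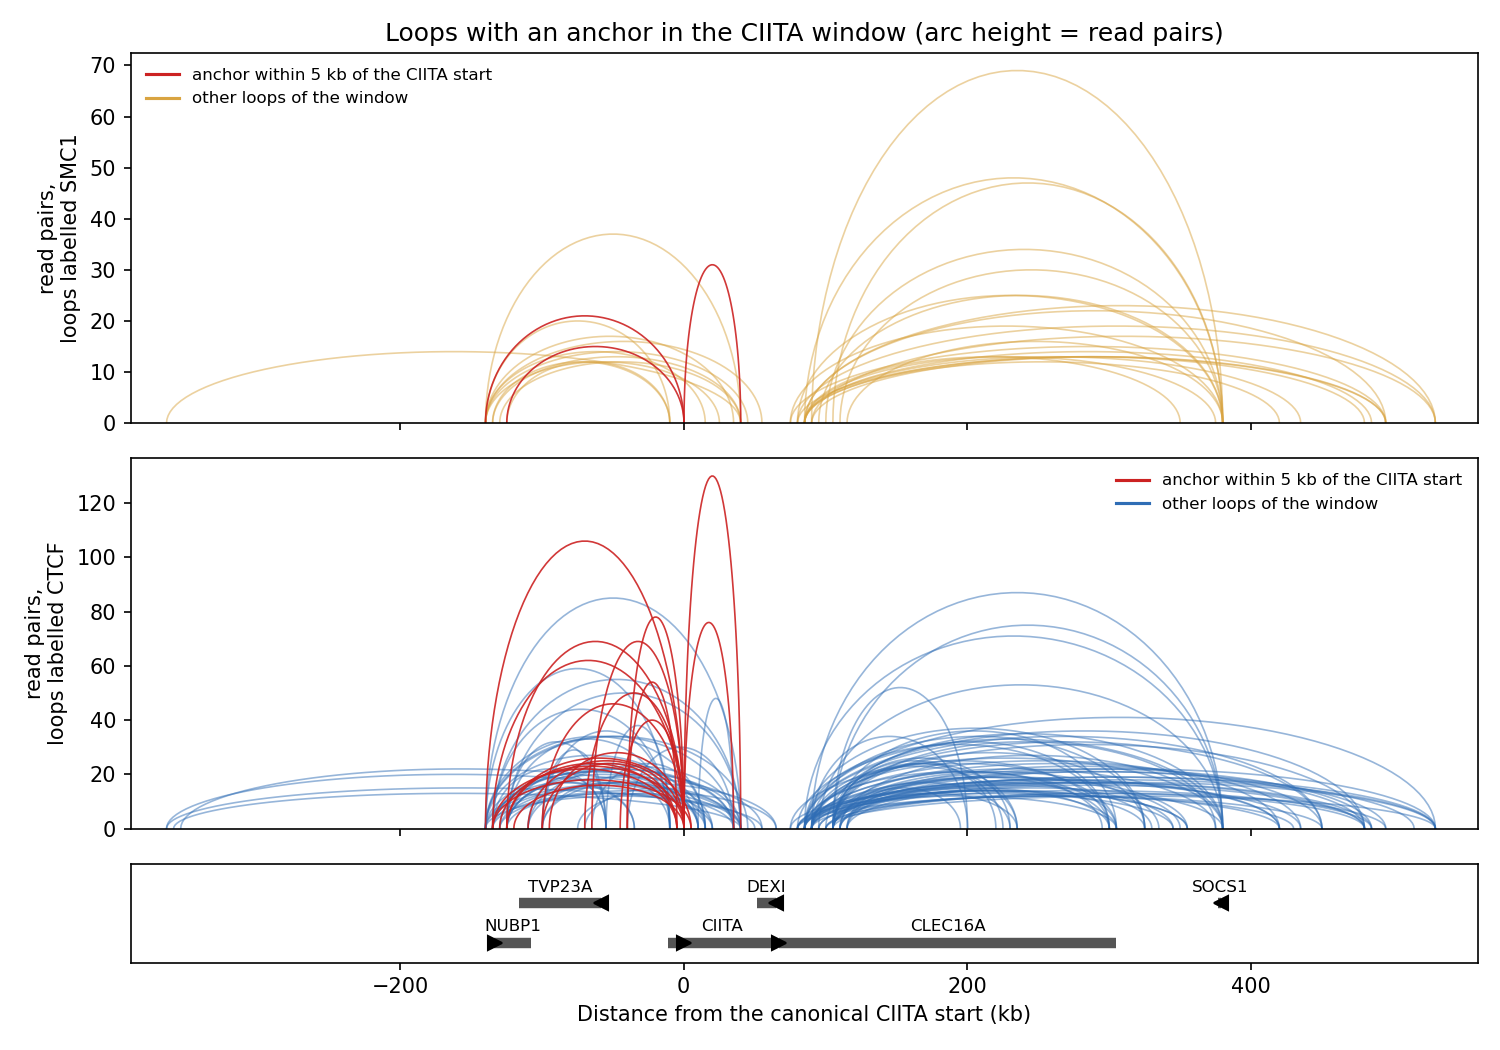
Loops of the CIITA window in the list labelled SMC1 (top, 37 loops) and labelled CTCF (middle, 139 loops), each an arc between its anchors, with height equal to its read pairs and the distance from the canonical CIITA start in kb on the horizontal axis. Red arcs touch the CIITA start; they reach the CIITA intron (31 and 130 pairs) or bins to the left, and no arc passes over the CLEC16A start.

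The loops of the window fell into a CIITA side and a CLEC16A side. In the list labelled SMC1, 15 loops had both anchors at or before the bin of the CLEC16A start and 22 had both anchors beyond it. In the list labelled CTCF the numbers were 66 and 73. In neither list did a loop of the window cross from one side to the other. Over all loops of chromosome 16, 0 loops spanned the 5 kb boundaries at 10945000 and 10950000, between the CLEC16A start and its first intronic CTCF site, while up to 14 and 59 loops spanned single boundaries in the 100 kb before the CIITA start. A boundary without a spanning loop is common in itself, at 73.5% of all boundaries in the list labelled SMC1 and 46.6% in that labelled CTCF.

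The direction of the loops changed with the side. The bin of the strong intronic CTCF site made 5 loops labelled SMC1 and 10 labelled CTCF, all of them leftward, to the CIITA start, to NUBP1 and, over 405 kb, to the bin at 10510001 with 14 pairs (7.65 to 23.5) against 3.17 expected and 20 in the other list. The bin that holds the DEXI and CLEC16A starts had 2 loops, both leftward and both labelled CTCF. From 10950001 on, each of the 9 anchor bins of CLEC16A looped only to the right, with 22 loops labelled SMC1 and 73 labelled CTCF. The strand of the motif did not divide the sides in this way. Before the CLEC16A start 7 of the 11 CTCF peaks held a match, 5 on the plus and 2 on the minus strand, and after it 3 of the 6 held one, all on the plus strand. The minus strand matches were those of the CIITA intron and of a weak CTCF peak 54.0 kb downstream of the CIITA start. They lay 237 and 199 bases from their summits. Within 100 bases of a summit 4 of the 11 peaks before the CLEC16A start and 2 of the 6 after it held a match, all on the plus strand. How often a whole peak holds a match by chance was not measured. Plus strand matches lay in peaks whose bins looped mostly or only to the left, among them the CTCF peak of the CIITA start at 11.5 bits and that of the DEXI start at 18.1 bits, where the −log10 q was 38.0. In the bin of site C the best match outside the peak, at 12.3 bits on the minus strand, was about as high as the plus strand match of the peak, at 12.2 bits.

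**Figure D4:**
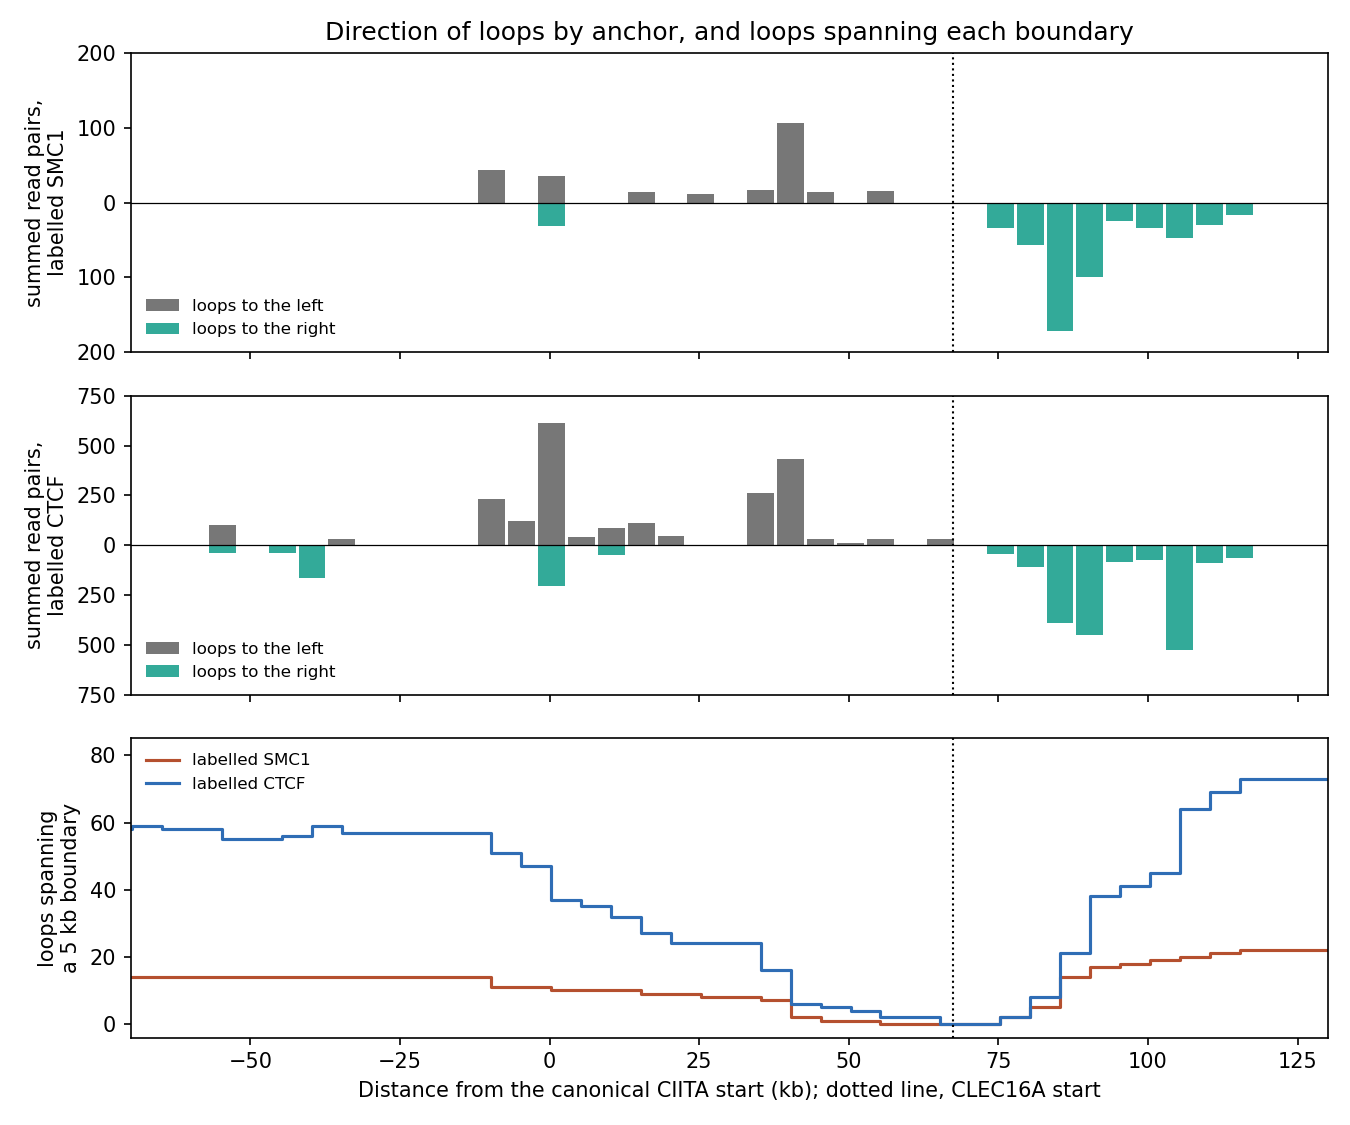
Summed read pairs of leftward (up) and rightward (down) loops for each 5 kb anchor bin of the window in the list labelled SMC1 (top) and labelled CTCF (middle), and the number of loops spanning each 5 kb boundary (bottom), against distance from the canonical CIITA start in kb. Bins of CLEC16A, right of the dotted line, have rightward loops only, and the spanning count is 0 there in both lists at 10945000 and 10950000.

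SOCS1, an inhibitor of cytokine signalling, was the main partner of the CLEC16A side. Its bin, chr16:11255001-11260000, met all 9 CLEC16A bins in both lists. The bin at 10965001 had 69 pairs (53.7 to 87.3) with it against 5.99 expected in the list labelled SMC1, the highest count of the window, and 87 (69.7 to 107) against 9.56 in the list labelled CTCF. The bins at 10960001 and 10980001 followed with 48 and 47 pairs, and with 71 and 75, and the bin at 10975001 had 34 and 35. The SOCS1 bin held 2 CTCF peaks, of which the stronger, at a −log10 q of 254, has the minus strand motif of 17.7 bits shown above, so that it faced the plus strand motifs of the CLEC16A introns. The CIITA start made no loop with SOCS1 in either list.

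On the CIITA side the bin upstream of NUBP1, at 10735001, had 8 loops labelled SMC1, more than any other bin outside the window on that side, and 11 labelled CTCF, the same number as the bins at 10740001 and 10750001. Its loops labelled CTCF summed to 448 pairs, against 312 and 330 in those bins. It held a CTCF peak at a −log10 q of 318 with a minus strand motif of 15.7 bits, which has the same direction as the motif of the CIITA intron. The loop between these bins had 37 pairs (26.1 to 51.0) against 6.59 expected and 85 (67.9 to 105) against 14.9. Taking the best match of at least 10 bits anywhere in each anchor, 16 of the 36 loops labelled SMC1 that had one at both ends were convergent (44.4%, Wilson interval 29.5 to 60.4) against 48.6% over the list, and 46 of 126 labelled CTCF (36.5%, 28.6 to 45.2) against 48.5%. Such a match need not lie in a CTCF peak. In the bin of site C, which had 19 loops labelled CTCF, the match used was on the minus strand outside the peak, at 12.3 bits. The peak's own match was on the plus strand, at 12.2 bits. The loops share anchors and are not independent, so these intervals are too narrow. At a minimum of 13 bits the shares were 53.8% of 13 loops labelled SMC1 and 45.2% of 31 labelled CTCF. Over the lists they were then 55.7% and 57.4%.

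The lists overlapped fully in one direction. All 37 loops labelled SMC1 had a loop labelled CTCF within 15 kb at both anchors, against 91.7% over the list, and 31 of them (83.8%) used the very same bins, against 69.0%. Of the 139 loops labelled CTCF 85 had such a partner (61.2%, 52.9 to 68.8) against 53.4% over the list, and 31 used the same bins (22.3%), as did 19336 of 80487 over the list. All loops of both lists had an SMC1 peak in at least 1 anchor. All 37 labelled SMC1 had a CTCF peak in one, and 118 of the 139 labelled CTCF did. The study describes its loops as having at least 1 anchor enriched for the target. In the list labelled CTCF all 139 loops met this for SMC1 and 118 for CTCF.

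Read pairs differed between the lists by side. For the 14 same-bin loops up to the CLEC16A start the list labelled CTCF had 738 pairs and that labelled SMC1 248, a ratio of 2.98 (exact 95% interval 2.57 to 3.45, counting error only). For the 17 beyond it the sums were 625 and 446, a ratio of 1.40 (1.24 to 1.59), and these intervals did not overlap. Over all 19336 same-bin loops the ratio of sums was 1.88. The 3 loops at the CIITA start had the ratios 4.19, 4.60 and 5.05, against a median of 1.64 over 19336 same-bin loops of all chromosomes. With the labels exchanged these ratios turn over. The expected counts differed in the same way, with a median ratio of 2.60 up to the CLEC16A start and 1.50 beyond it. For the 3 loops at the CIITA start the median ratio of expected counts was 4.24, ranging from 3.67 to 4.66. Over all same-bin loops it was 1.34. The part of the background level of these bins in the difference was not tested. The 14 loops share a few anchors, as do the 17, so neither set is independent and the intervals are too narrow.

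**Figure D5:**
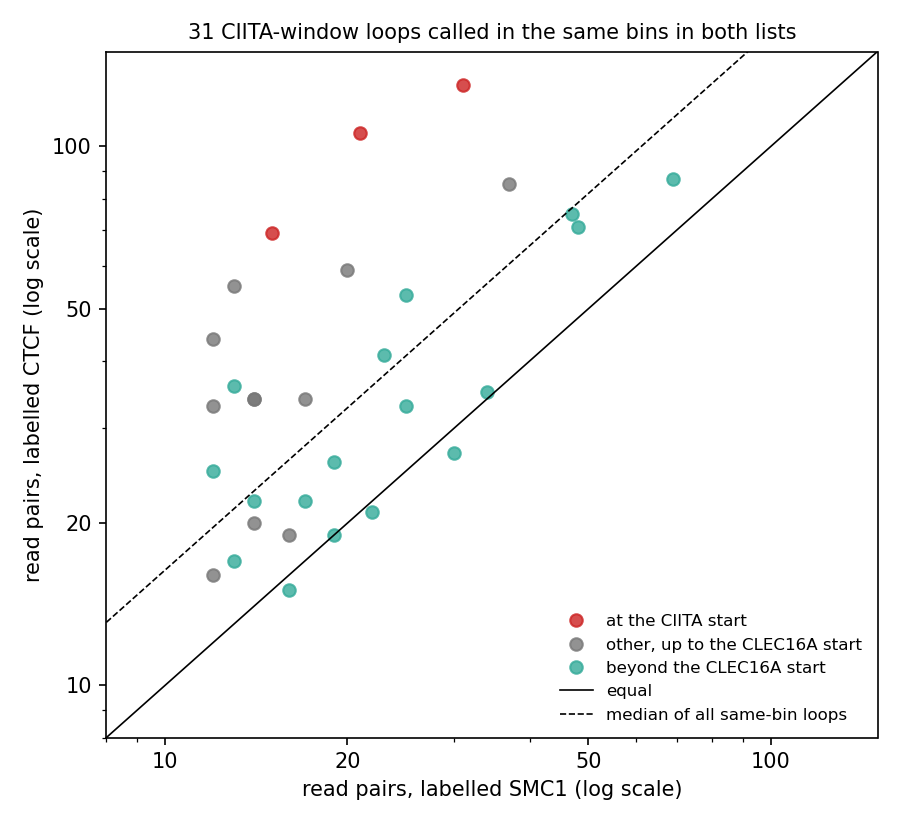
Read pairs of the 31 loops called in the same bins in both lists, labelled CTCF against labelled SMC1, on log axes, with the line of equal counts (solid) and the median ratio of all same-bin loops, 1.64 (dashed). The 3 loops at the CIITA start have the ratios 4.19 to 5.05, where the expected counts have a median ratio of 4.24. Loops beyond the CLEC16A start lie nearer to equality.

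Among 17 other genes of the pathway, 4 class II genes (HLA-DOA, HLA-DRB5, HLA-DQA2 and HLA-DQB2) lay in the empty stretch and had no peak. The other 13 include genes for the factors that bring CIITA to promoters, the invariant chain, proteases and ubiquitin ligases. Of these 13, 11 had an SMC1 peak within 1 kb of their start and 7 a CTCF peak. Outside the empty stretch the shares over all genes were 59.1% and 38.9%. The 2 without an SMC1 peak were MARCHF1 and MARCHF8, ligases that remove class II molecules from the surface.

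CD74, the invariant chain that occupies the class II groove until HLA-DM acts, had the strongest SMC1 peak of these starts, at a −log10 q of 54.9, with a CTCF peak at 33.0. It was followed by NFYC at 52.6, which had no CTCF peak within 1 kb, and by NFYA at 47.3 with CTCF at 37.2, both subunits of NF-Y. By CTCF the first was CREB1, a factor that binds at the X2 box, at 38.7. The SMC1 peak at the CIITA start, at 104, was higher than that of any of them, and its CTCF peak, at 28.8, was lower than those of CREB1, NFYA and CD74. Loops labelled SMC1 were at the start of 1 of these 13 genes, against 28.1% of all genes outside the stretch, and loops labelled CTCF at 7 of the 13, against 50.9%. The 1 gene was CD74, with 3 loops labelled SMC1 of up to 51 pairs and 4 labelled CTCF of up to 91.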

How the data were processed

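SMC1 and CTCF HiChIP of the lymphoblastoid line HG00731 were analysed from 1 peak list and 1 loop list per target, in each of which the authors had pooled 2 replicates. Per the study's methods, reads of low mapping quality were removed. The deposited peak lists, made with MACS3 3.0.1, give the fold enrichment at the summit over local background as a ratio and the q-value as −log10 q. The deposited loop lists give counts of read pairs per pair of 5 kb bins and the count expected by the authors' loop caller. No depth per library could be derived from them. Chromosome lengths fitted hg38, and genes and canonical transcript starts were taken from GENCODE v44.

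The genes, windows and gene lists were chosen with earlier results of these data known. For each gene the nearest peak to the start and the loop with most read pairs were named, with the strongest peaks and loops of each window. Peaks were assigned to starts within 1 kb and anchors within 5 kb, overlap needed 1 base, and loops matched within 15 kb. The CTCF motif was learned from 3000 summits off chromosomes 6, 16 and X, after tests on simulated data. Within 100 bases it matched at 31.8% of CTCF summits and at 8.47% of controls 1 kb away. Shares carry Wilson intervals. Python 3 libraries NumPy, SciPy and pandas were used.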

Additional observations from a re-analysis of the deposited data

How the results depend on the processing

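All counts rest on lists that pool replicates, so no replicate could be left out, and no paired analysis was possible because the lists pool both replicates. For the members with a peak or loop at their start, 1 in each case, other distances, a stricter q-value, any transcript start and the exchanged loop lists kept the count, with the exception that 0 members had an SMC1 peak and 0 a CTCF peak when the 5′ end of the gene record replaced the canonical start, since the CIITA record begins upstream. Other settings for the class II window gave no value, as it held no peak and no loop. The settings for the CIITA window were chosen after the data were seen. With the loop lists exchanged, the share of SMC1 peaks in a loop anchor went from 58.6% to 89.7% and that of CTCF peaks from 94.1% to 70.6%. With only peaks at a −log10 q of at least 10, the share of CTCF peaks that overlap SMC1 went from 76.5% to 90.9%. With the same pair of bins required, the share of matched loops went from 100% to 83.8% for those labelled SMC1 and from 61.2% to 22.3% for those labelled CTCF. The other 9 of these settings moved a value by less than its counting interval or 1.5 times.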

Other observations

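Other long stretches without a peak on the primary chromosomes held far fewer genes than those of chromosome 6. After these, the most coding starts were in 1.54 Mb of chromosome 14 from position 92868499 with 24, in 2.34 Mb of chromosome 15 from 28227446 and in 1.61 Mb of chromosome 17 from 45308611 with 16 each, and in 2.30 Mb of chromosome 5 from 69335180 with 14. None of them held undetermined bases (N). LGMN, the protease on the list of pathway genes, starts on chromosome 14 at 92748627, before the stretch there, and had an SMC1 peak within 1 kb at a −log10 q of 13.5.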
